A study of Homo sapiens with 43 samples.

Results

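The messenger RNAs described here come from 7 genes that most proliferating cells transcribe heavily: EEF1A1, EEF2, ACTB, GAPDH, TUBA1B, HSP90AB1 and NPM1. A called peak belonged to a gene when it overlapped the gene's hg19 interval by at least 1 nt on the same strand, and no binding value entered that choice. The 25 peak lists held 2877 such peaks, between 56 and 170 per library, of 25723 to 100860 called peaks per library. Transcript abundance was not measured in these files, so the label is taken from general knowledge of the genes.

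The data are eCLIP (enhanced crosslinking and immunoprecipitation) libraries from HEK293T, a human embryonic kidney line, crosslinked with ultraviolet light at 254 nm and 400 mJ/cm2. An RNA-binding protein (RBP) is pulled down with the RNA fixed to it, the complex is cut from a protein gel, and reads are set against an input sample cut from the same gel region. Of the 43 samples, 25 were immunoprecipitations (IPs) with a peak list and 18 were inputs, which enter only through the authors' log2 fold of IP over input. The wild-type libraries used antibodies against HNRNPC, FMR1, RBFOX2, LIN28 and DGCR8 in unedited cells, 1 library each. The tagged libraries used antibodies against V5 (HNRNPC isoform 1, HNRNPC isoform 2, RBFOX2, LIN28) or FLAG (FMR1, DGCR8) in cells whose own RBP gene carries the tag, again 1 library each. The labels do not name the clones or the LIN28 paralog. A further 14 libraries, FLAG-only and V5-only, name no RBP, and were cut from 7 overlapping gel ranges, 1 library per antibody and range, with 1 input label per range. The labels leave unsaid whether those cells carried a tag.

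Messenger RNAs are packaged by nuclear proteins while their introns are still present, and reach the cytoplasm spliced. HNRNPC coats uridine-rich stretches of nascent transcripts, RBFOX2 regulates splicing and DGCR8 partners DROSHA in the nucleus, whereas FMR1 works on translated mRNAs and LIN28 binds microRNA precursors and mRNAs. Abundant mRNAs are a common background in such experiments, and the size-matched input is meant to account for it.

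The intervals lie on 5 chromosomes in hg19. EEF1A1 (chromosome 6, 74225473 to 74230755, minus strand) encodes the factor that brings aminoacyl-tRNA to the ribosome. EEF2 (chromosome 19, 3976054 to 3985467, minus strand) encodes the translocation factor. ACTB (chromosome 7, 5566779 to 5570232, minus strand) encodes beta-actin, and TUBA1B (chromosome 12, 49521565 to 49525304, minus strand) an alpha-tubulin. GAPDH (chromosome 12, 6643585 to 6647537, plus strand) encodes a glycolytic enzyme. HSP90AB1 (chromosome 6, 44214848 to 44221614, plus strand) encodes a cytosolic chaperone, and NPM1 (chromosome 5, 170814708 to 170837888, plus strand) a nucleolar chaperone. The spliced length of the longest principal transcript in GENCODE 29 equals 84.1% of the interval length for EEF1A1, 55.6% for ACTB and 47.4% for GAPDH. It equals 43.5% for TUBA1B, 39.5% for HSP90AB1, 33.6% for EEF2 and 7.58% for NPM1. For EEF1A1 that transcript has 7 exons and 4441 nt, while another principal transcript, EEF1A1-201, has 7 introns, among them 1 of 943 nt. The 84.1% is thus not the exonic share of EEF1A1-201. GENCODE 29 names 62 pseudogenes of GAPDH, 45 of NPM1, 39 of EEF1A1 and 10 of ACTB, and none by that naming for the others. How reads that match both a gene and its copies were placed is not given, so values of those 4 genes are uncertain to that extent.

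A peak is called significant below when its −log10 p and its log2 fold over input are both at least 3, which is an 8-fold excess. Only 165 member peaks passed. LIN28 V5 had the most among RBP libraries, 32 of 150 member peaks (21.3%, 95% Wilson interval 15.5% to 28.6%), against 10.6% of all its peaks. LIN28 wild type had 1 of 117, against 4.73% of all peaks. FMR1 FLAG had 6 of 170 (3.53%, 1.63% to 7.49%), while 17.2% of all its peaks were significant, and FMR1 wild type had 0 of 128 (interval up to 2.91%) against 5.23%. In both FMR1 libraries the whole interval for the members therefore lay below the share among all peaks.

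The nuclear RBPs had few significant member peaks. HNRNPC wild type had 5 of 56 (8.93%, 3.87% to 19.3%) against 2.15% of all peaks, all 5 in NPM1. That whole interval lay above the share among all peaks. HNRNPC V5 isoform 1 had 1 of 77 against 0.76%, and isoform 2 had 0 of 62 against 1.97%. RBFOX2 wild type had 1 of 74 against 7.03% and RBFOX2 V5 had 0 of 84 against 4.0%. DGCR8 wild type had 2 of 105 against 4.16% and DGCR8 FLAG 0 of 71 against 1.78%. Intervals cover counting error over peaks only, neighbouring peaks of 1 gene are not independent, and a single library per RBP and tag state leaves no replicate error.

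In nuclear RBP libraries these mRNAs had a larger share of depleted peaks than peaks in general. A negative log2 fold means fewer reads in the IP than in the input at the peak. In the HNRNPC libraries 90 of 195 member peaks were negative (46.2%, 39.3% to 53.2%), against 12.2% of all peaks (10.8% in wild type, 15.2% with tagged isoform 1, 11.3% with isoform 2). In the RBFOX2 libraries it was 84 of 158 (53.2%, 45.4% to 60.8%) against 12.7% (12.6% in V5), and in the DGCR8 libraries 48 of 176 (27.3%, 21.2% to 34.3%) against 6.05%. For FMR1 the shares were 10.7% and 5.69%, and for LIN28 10.1% and 8.74%. Among HNRNPC peaks the negatives were uneven by gene, since all 18 of GAPDH but 1 of 35 of NPM1 were negative. The members had the smaller share in the tag-only libraries, where 0.680% of 883 FLAG-only and 0.889% of 900 V5-only member peaks were negative against 2.65% and 5.07% of all peaks.

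**Figure D1:**
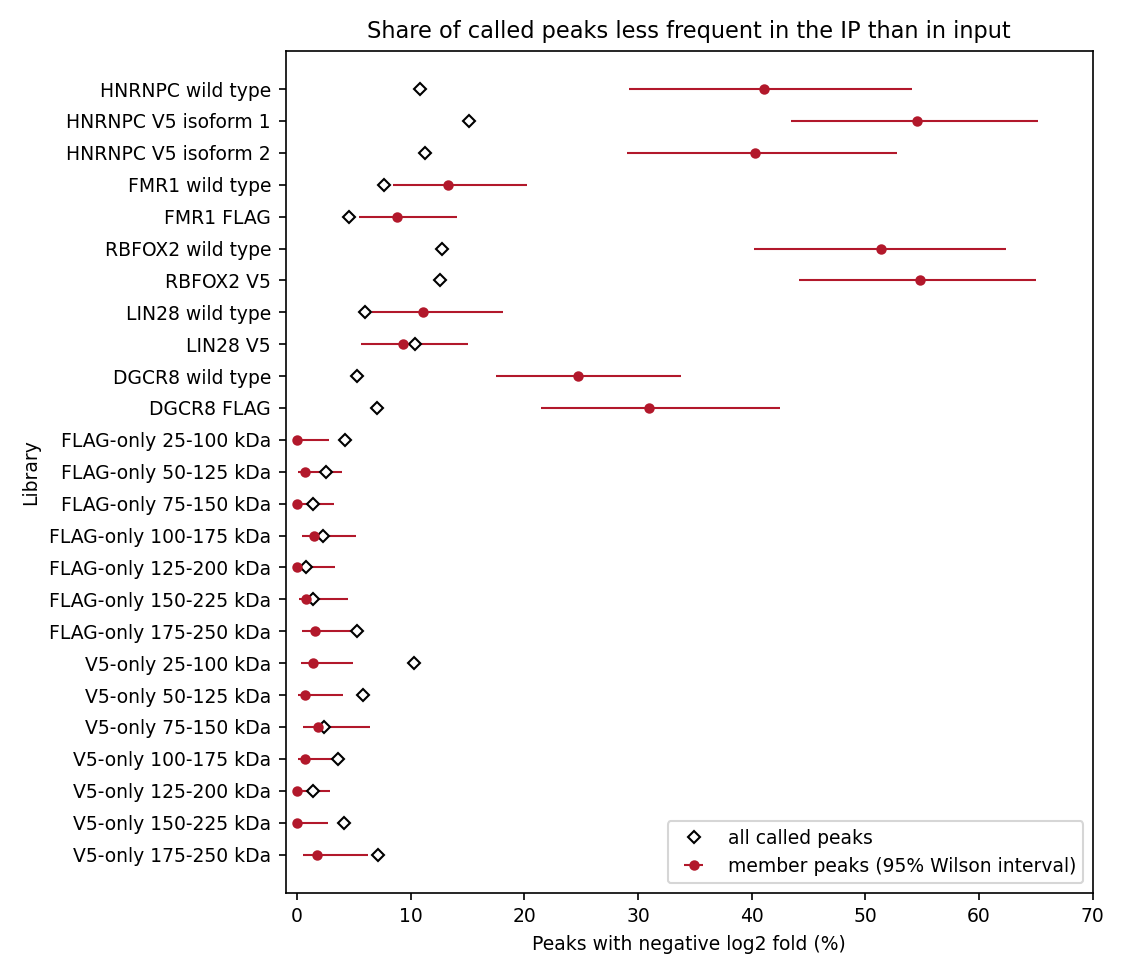
Percentage of called peaks with a negative log2 fold of IP over input (x axis) in each of the 25 libraries (y axis), for peaks of the 7 genes (filled circles with 95% Wilson intervals) and for all called peaks (open diamonds). Member peaks sit between 40.3% and 54.8% in the 3 HNRNPC and 2 RBFOX2 libraries, and at most 1.82% in the 14 tag-only libraries.

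Peaks that were clear of the input without reaching 8-fold made up most of the FMR1, LIN28 and tag-only signal. A −log10 p of at least 3, at any fold, was reached by 49.7% of 298 FMR1 member peaks against 22.7% of all peaks, and by 53.6% of 267 LIN28 member peaks against 13.1%. The shares were 77.6% against 20.1% in FLAG-only and 64.0% against 13.2% in V5-only. RBFOX2 reached 7.59% against 8.64%, HNRNPC 10.3% against 4.06% and DGCR8 14.2% against 5.73%. The p of a given fold depends on the reads behind it, which are unknown here.

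To set the genes side by side, the log2 folds of a gene's peaks in a library were averaged with weights by length. They were ranked against 10-kb strand-specific bins of the genome with at least 3 peaks in that library. GAPDH had the lowest mean of the 7 genes in 10 of the 11 RBP libraries, with ACTB lower in LIN28 wild type. Its mean log2 fold was −3.54 in HNRNPC wild type, −4.01 in V5 isoform 1 and −3.35 in isoform 2, and all of its 4, 8 and 6 peaks there were negative. The mean was −0.85 and −0.65 in RBFOX2 wild type and V5, 0.24 and 0.50 in FMR1 wild type and FLAG, 0.59 and 0.57 in LIN28 wild type and V5, and 0.21 and 0.02 in DGCR8 wild type and FLAG. In every RBP library GAPDH lay in the lowest 8.29% of bins. No RBP library had a significant GAPDH peak.

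The elongation factors stood far from GAPDH in the LIN28 libraries. EEF1A1 had the highest mean of the 7 genes in both, 1.52 in wild type and 2.57 in V5. It ranked above 44.2% of bins in wild type and above 77.2% in V5. EEF2 had 1.28 and 1.89. In FMR1 wild type and FLAG, EEF1A1 had 0.44 and 1.18 and EEF2 1.13 and 1.72. In the HNRNPC libraries EEF1A1 lay just under 0, at −0.26, −0.21 and −0.06, and EEF2 at 0.42, 0.08 and 1.44. RBFOX2 gave EEF1A1 0.50 and 0.09, and EEF2 −0.21 and −0.34. DGCR8 gave EEF1A1 0.65 and 0.57, and EEF2 0.55 and 0.23. Both elongation factor mRNAs had a higher mean than the glycolytic GAPDH mRNA in all 11 RBP libraries.

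**Figure D2:**
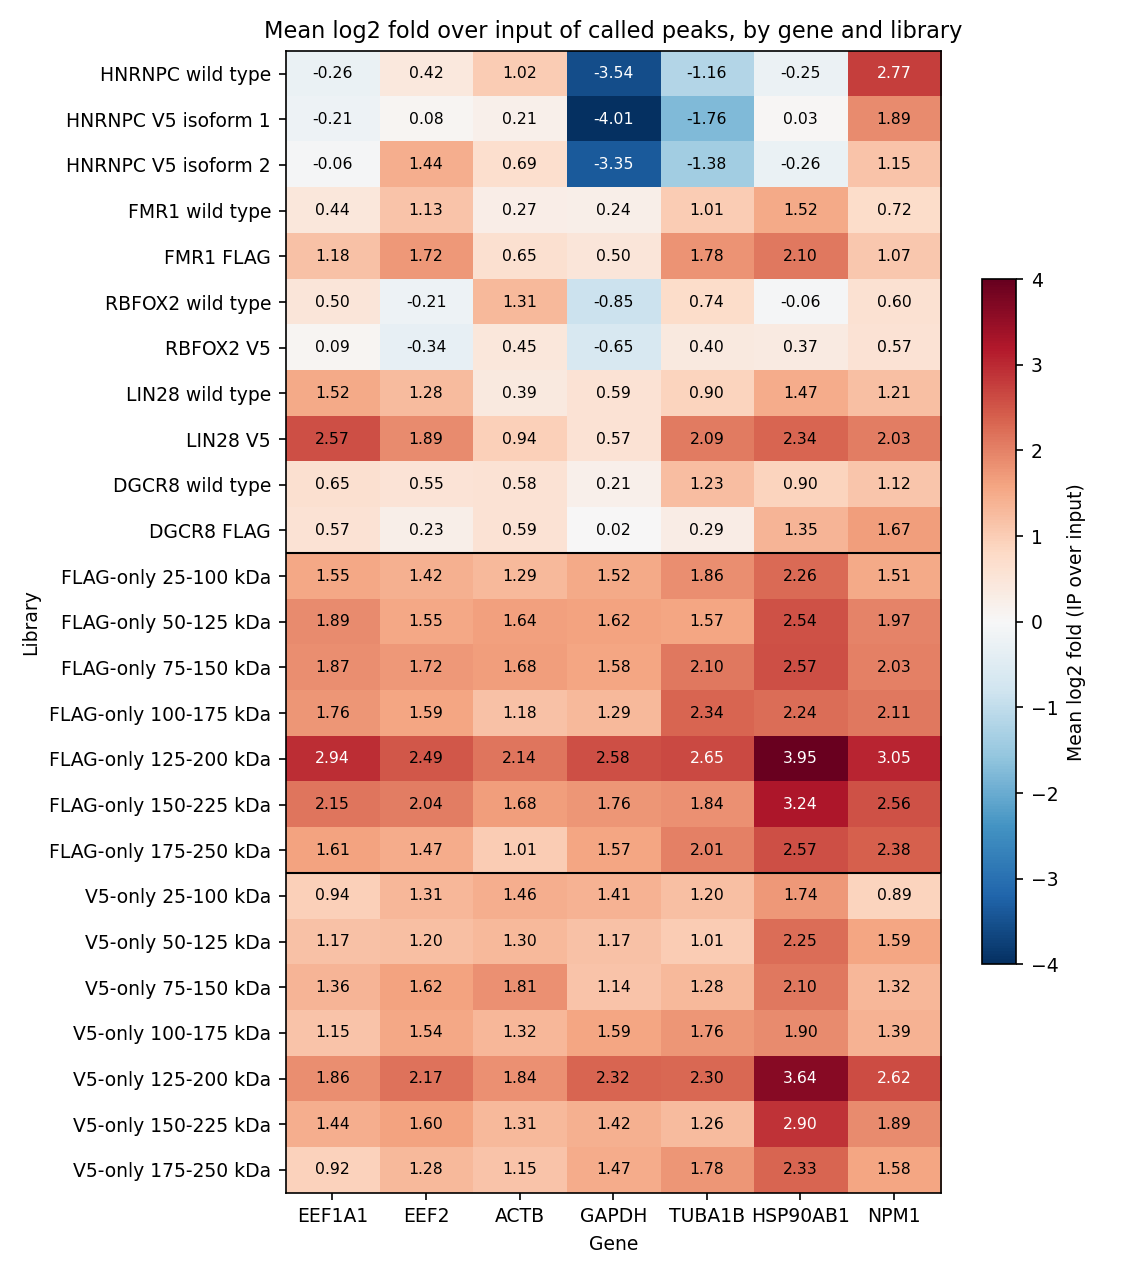
Mean log2 fold of IP over input of the called peaks of each gene (columns) in each library (rows; RBP libraries above the first line, FLAG-only between the lines, V5-only below), from −4 (blue) to 4 (red), with the value printed in each cell. GAPDH is blue in the HNRNPC and RBFOX2 rows, NPM1 reaches 2.77 in HNRNPC wild type, and all 98 tag-only cells are above 0.

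The cytoskeletal mRNAs differed from each other. TUBA1B had negative means in all 3 HNRNPC libraries (−1.16, −1.76 and −1.38), in the lowest 1.05% of bins at most. Its means were 1.01 and 1.78 in FMR1 wild type and FLAG, 0.90 and 2.09 in LIN28 wild type and V5, and 1.23 and 0.29 in DGCR8 wild type and FLAG. ACTB had 1.02, 0.21 and 0.69 in HNRNPC wild type, isoform 1 and isoform 2, but 0.27 and 0.65 in the FMR1 libraries and 0.39 and 0.94 in the LIN28 libraries. In RBFOX2 wild type ACTB had the highest mean of the 7, 1.31, and 0.45 in RBFOX2 V5.

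HSP90AB1 led the FMR1 libraries, with means of 1.52 in wild type and 2.10 in FLAG. HSP90AB1 was second in both LIN28 libraries, with 1.47 and 2.34. It lay close to 0 in HNRNPC (−0.25, 0.03 and −0.26) and RBFOX2 (−0.06 and 0.37), and reached 0.90 and 1.35 in DGCR8 wild type and FLAG. NPM1 led HNRNPC wild type (2.77) and HNRNPC V5 isoform 1 (1.89), above 97.9% and 90.1% of bins. In isoform 2 NPM1 had 1.15, above only 41.2% of bins and behind EEF2 (1.44).

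The significant RBP peaks followed that pattern. In NPM1 the strongest HNRNPC wild-type peak lay at 170836840 to 170836850, with a log2 fold of 4.71 and a −log10 p of 8.08. The strongest HNRNPC V5 isoform 1 peak, also in NPM1, lay at 170827640 to 170827665 with a log2 fold of 4.02. The strongest FMR1 FLAG peak was in TUBA1B at 49522068 to 49522129 (log2 fold 3.45), while 4 of the 6 FMR1 FLAG peaks were in HSP90AB1 and 1 in EEF2. LIN28 V5 had 11 significant peaks in EEF1A1, 8 in HSP90AB1, 7 in EEF2, 3 in TUBA1B, 3 in NPM1 and 0 in ACTB and GAPDH. Its strongest lay in EEF2 at 3982331 to 3982348 (log2 fold 4.77), next to a peak at 3982304 to 3982320 with a log2 fold of 4.75 and a −log10 p at the cap of 400.

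Within a gene, the folds differed by position. For each gene the longest stretch without any called FMR1 or LIN28 peak was located, a rule chosen after the peak maps had been seen and described here without a test. The stretch was 860 nt in ACTB, 941 in EEF1A1, 1573 in TUBA1B, 1633 in GAPDH, 2287 in HSP90AB1, 1267 in EEF2 and 7173 in NPM1. Principal transcripts of GENCODE 29 have an intron of 860, 943, 1575, 1632, 2285 and 7174 nt in ACTB, EEF1A1, TUBA1B, GAPDH, HSP90AB1 and NPM1, so these 6 stretches came within 2 nt of an intron's length. The HSP90AB1 stretch begins at the edge of the interval, so its length is set by a peak on 1 side only and its match is weaker than the others. The nearest intron of EEF2 is 111 nt shorter than the stretch. For ACTB, EEF1A1, TUBA1B and HSP90AB1 the intron is the first of its transcript. That annotation is on GRCh38, so only lengths were compared, each with the nearest of 3 to 14 intron lengths per gene. An hg19 annotation was not used here.

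In ACTB the stretch runs from 5569295 to 5570154, 78 to 937 nt from the 5′ end. RBFOX2 wild type had 4 peaks in it with log2 folds of 2.34 to 3.95, while its 7 peaks elsewhere in ACTB had a median of −1.42. RBFOX2 V5 had 3 peaks of 1.20 to 2.38 in it and a median of −0.26 elsewhere. DGCR8 wild type had 3 of 2.41 to 3.86 and a median of −0.24 elsewhere, and DGCR8 FLAG had 4 of 0.30 to 1.76 and a median of −0.77 elsewhere. All 3 significant ACTB peaks of RBP libraries were here. They were the strongest RBFOX2 wild-type member peak (5569981 to 5570063, log2 fold 3.95, −log10 p 14.5) and 2 DGCR8 wild-type peaks (5569814 to 5569871, 3.86, and 5569586 to 5569631, 3.26). The high ACTB mean in RBFOX2 wild type thus came from this stretch.

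The ACTB peaks in the stretch fell on 4 sites, each seen in at least 3 libraries. The site at 5569449 to 5569513 was called in 8: both RBFOX2, both DGCR8 and 4 V5-only libraries, with log2 folds from 0.30 in DGCR8 FLAG to 4.13 in V5-only 75-150 kDa. The site at 5569787 to 5569875 was called in 5, both RBFOX2, both DGCR8 and V5-only 75-150 kDa. No HNRNPC and no FLAG-only library had a peak in the stretch, although each FLAG-only library had 12 to 17 ACTB peaks elsewhere. V5-only peaks lay at 2 of the 3 sites with an RBFOX2 V5 peak, and the part of the antibody in those values was not tested. Of the 19 peaks in the stretch 5 were significant.

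TUBA1B and EEF1A1 had a similar layout in part, with weaker peaks in the stretch, none of them significant. In the TUBA1B stretch (49523506 to 49525078) RBFOX2 had 7 peaks (median log2 fold 1.08), DGCR8 4 (median 2.54, lowest 2.33), V5-only 5 in 3 libraries (median 2.41) and FLAG-only 0. HNRNPC had 3 peaks in that stretch, from −0.31 to 0.73. Outside it, the 5 peaks of DGCR8 wild type had a median of 0.41 and those of DGCR8 FLAG a median of −0.47. In the EEF1A1 stretch (74229781 to 74230721) HNRNPC had 11 peaks (median 0.85), DGCR8 8 (median 1.74), RBFOX2 6 (median 0.84), V5-only 10 spread over all 7 libraries (median 1.76) and FLAG-only 0. HNRNPC peaks of EEF1A1 outside the stretch had medians of −1.61, −1.82 and −1.34 in wild type, isoform 1 and isoform 2. Inside it the medians were 1.80, −0.04 and 1.02. RBFOX2 V5 peaks there reached down to −1.20. The highest RBFOX2 wild-type peak lay outside the stretch in both genes (3.50 against 0.91 in EEF1A1, 1.79 against 1.68 in TUBA1B). The RBFOX2 wild-type medians were higher inside (0.91 against −0.13, and 1.12 against 0.48). In RBFOX2 V5 the highest peak lay inside in both genes. One site, 74230289 to 74230362, was called in 13 libraries, among them all 3 HNRNPC and all 7 V5-only.

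**Figure D3:**
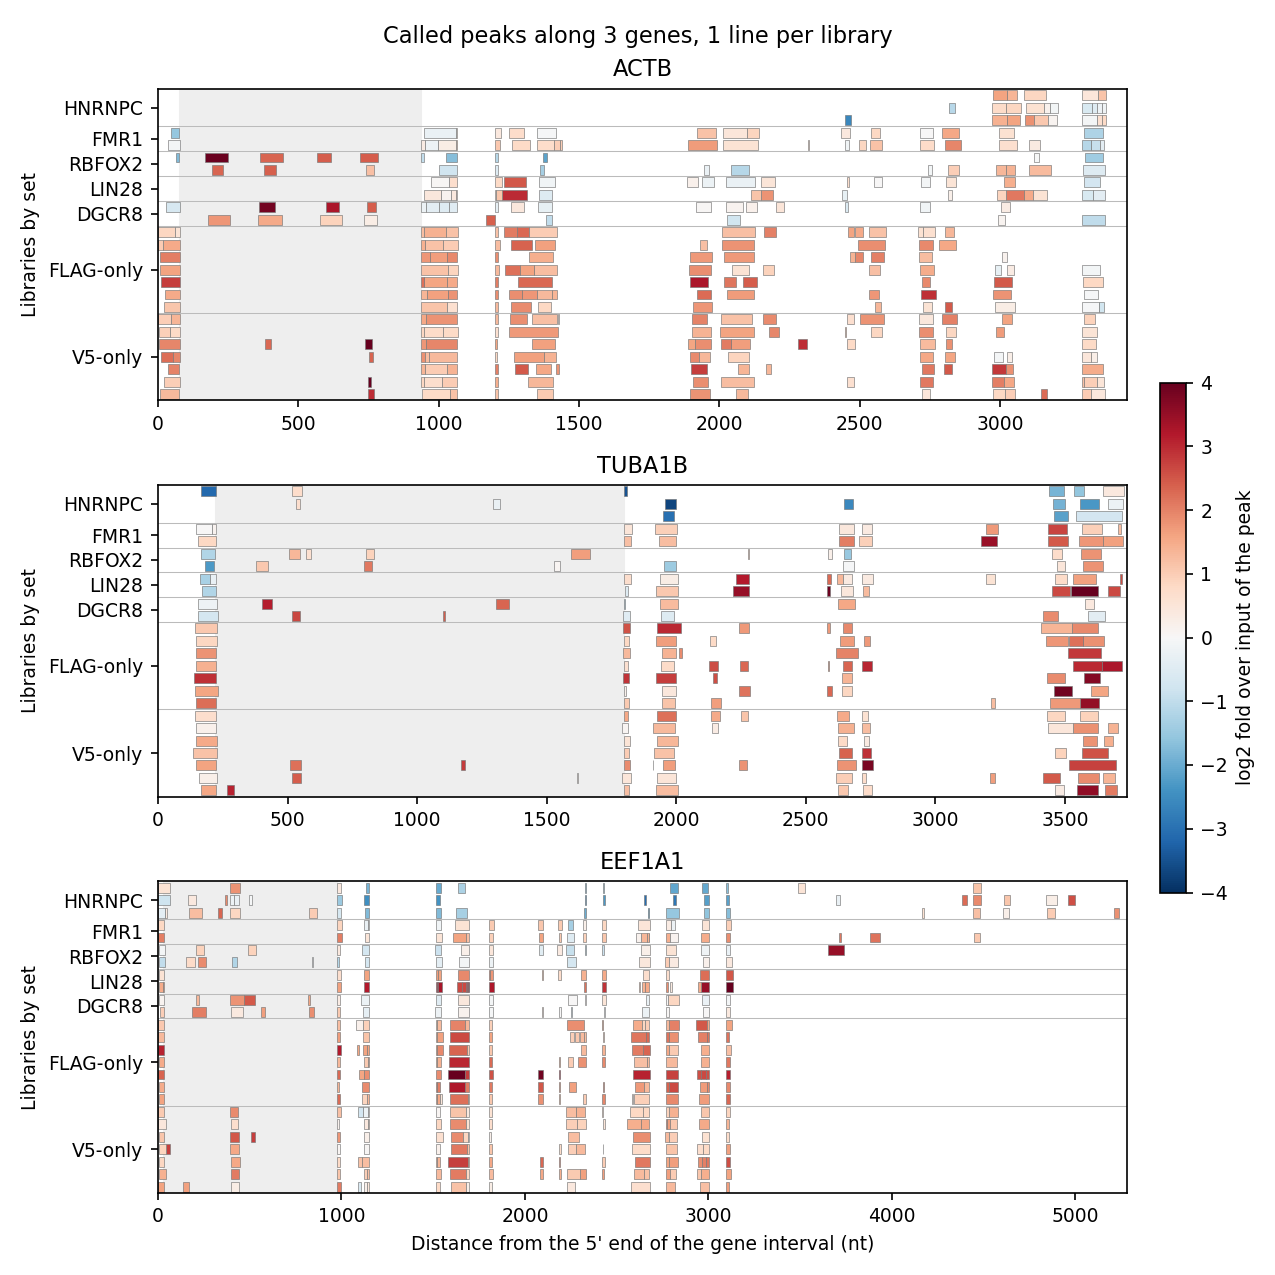
Called peaks (bars, width to scale) of ACTB, TUBA1B and EEF1A1 by distance from the 5′ end of the gene interval in nt (x axis), 1 line per library grouped by RBP or tag-only antibody (y axis), coloured by log2 fold over input from −4 (blue) to 4 (red). Grey marks the longest stretch without FMR1 or LIN28 peaks. RBFOX2, DGCR8 and V5-only peaks appear there in each gene, and HNRNPC peaks in TUBA1B and EEF1A1 but not ACTB. The 7 FLAG-only libraries have 0 peaks there.

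In the other genes the stretches held HNRNPC and tag-only peaks, or none. In EEF2 (3978063 to 3979329) HNRNPC had 21 peaks in its 3 libraries, none negative, with a median log2 fold of 1.67 and a highest of 3.27, and RBFOX2 and DGCR8 had 0. Tag-only libraries had peaks of like height in the stretch, 3 in FLAG-only (median 1.74) and 6 in V5-only (median 1.81), but at other sites. Those peaks lay between 3978076 and 3978168, and the HNRNPC peaks between 3978372 and 3979181. In NPM1 (170819984 to 170827156) HNRNPC had 15 peaks, 3 of them significant, at log2 folds from 0.17 to 4.19. The V5-only libraries had 2 peaks there, at 0.06 and 0.28. In HSP90AB1 the first 2287 nt of the interval held 7 peaks, 3 from HNRNPC (median 0.60), 1 from FLAG-only (2.26) and 3 from V5-only (median 1.77). In GAPDH (6644027 to 6645659) none of the 25 libraries had a peak, so every GAPDH value comes from the remainder of the gene.

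At shared positions LIN28 and FMR1 gave higher folds with the tag antibody than with the antibody to the protein, in all 7 genes. The median of the 10-kb bins was also higher, 1.82 in LIN28 V5 against 1.63 in wild type, and 2.13 in FMR1 FLAG against 1.48. In LIN28 wild type 7 of the 7 genes had a mean below that median, and in LIN28 V5 2 did. At nucleotides covered by member peaks of both LIN28 libraries (3180 nt), the mean log2 fold was 1.15 in wild type and 1.79 in V5, and 98.5% of the nucleotides had the same sign. The V5 library exceeded wild type there by 1.12 in EEF1A1, 1.00 in TUBA1B, 0.86 in HSP90AB1, 0.72 in NPM1, 0.58 in EEF2, 0.32 in ACTB and 0.11 in GAPDH. Of the 32 significant LIN28 V5 peaks, 31 overlapped a called wild-type peak, with a median log2 fold of 3.34 in V5 and 1.91 in wild type, and 1 overlapped a significant one. That one was the TUBA1B peak at 49523025 to 49523083 (3.49 in V5, and 3.17 in wild type at 49523025 to 49523073), the region in which LIN28 alone was significant with both antibodies.

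For FMR1, 4368 nt were shared, with means of 0.76 in wild type and 1.25 in FLAG and 90.7% of nucleotides of the same sign. The excess of FLAG over wild type ran from 0.23 in GAPDH to 0.74 in EEF1A1. Against the bin median, 6 of the 7 genes lay below in wild type and 7 in FLAG, so this excess was not particular to these genes. For HNRNPC isoform 1 the tagged library was instead lower at shared positions in all 7 genes, from −0.16 in EEF2 to −1.16 in NPM1, and the other pairs had genes of either sign. Over all shared positions, tagged minus wild type was 0.21 for RBFOX2, −0.30 for DGCR8, −0.65 for HNRNPC isoform 1 and −0.32 for isoform 2, with 74.1% to 84.9% of shared nucleotides of the same sign. For DGCR8 the largest difference was in ACTB, −1.71 over 216 shared nt.

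**Figure D4:**
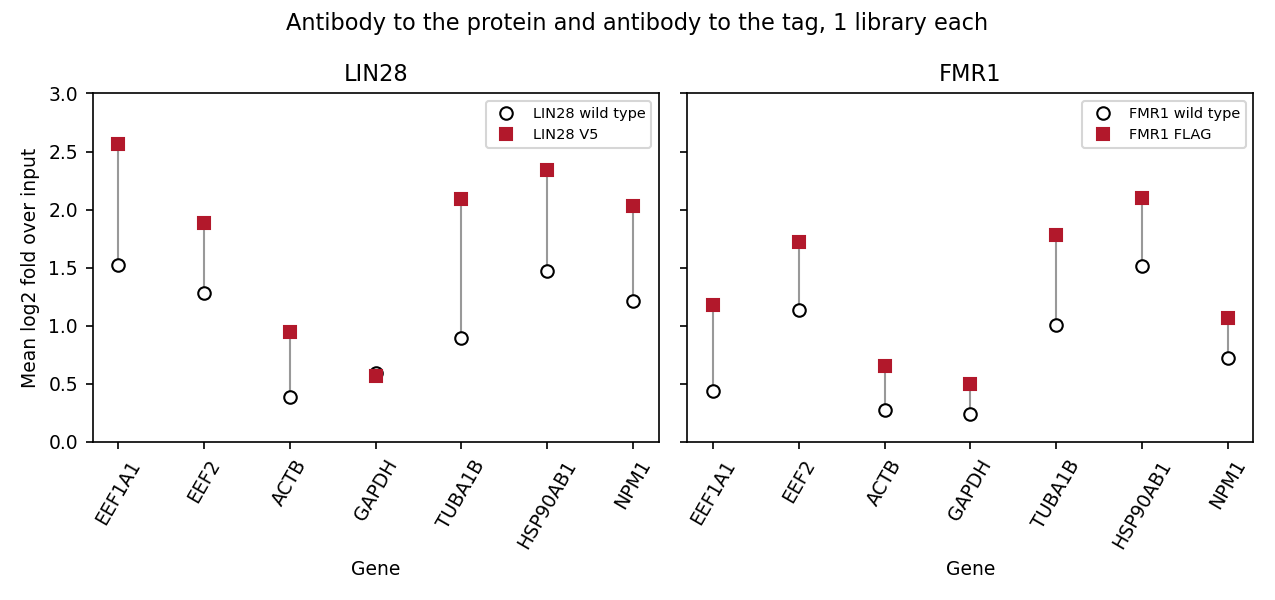
Mean log2 fold of IP over input (y axis) of each gene's called peaks in the library made with the antibody to the protein (open circles) and in the tagged library (filled squares), for LIN28 and FMR1, 1 library per point. LIN28 runs from 1.52 to 2.57 in EEF1A1 and from 0.59 to 0.57 in GAPDH, and all 7 genes are higher in FMR1 FLAG than in FMR1 wild type. The median of the 10-kb bins, not drawn, is also higher in FMR1 FLAG, 2.13 against 1.48.

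Tagged libraries can be read beside tag-only libraries made with the same antibody, although their inputs differ. LIN28 V5 was above the highest of the 7 V5-only libraries for EEF1A1 (2.57 against 0.92 to 1.86). It was within their range for EEF2, TUBA1B, HSP90AB1 and NPM1 and below it for ACTB and GAPDH. FMR1 FLAG was within the FLAG-only range for EEF2 (1.72 against 1.42 to 2.49) and TUBA1B (1.78 against 1.57 to 2.65) and below it for the other 5. RBFOX2 V5 was below the V5-only range for all 7, HNRNPC V5 isoform 1 and DGCR8 FLAG for 6, and HNRNPC V5 isoform 2 for 5. Except for EEF1A1 in LIN28 V5, no tagged library had a higher mean at any of these genes than every tag-only library of its antibody. This holds for gene means only. In EEF2 the highest single peak had a log2 fold of 4.77 in LIN28 V5 and 3.21 in V5-only.

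The tag-only libraries had mean folds above 0 at all 7 mRNAs, but not above the rest of the genome in general. In every tag-only library 3 to 6 of the 7 genes lay below the median of the bins, and ACTB stood above only 10.1% to 33.8% of bins in FLAG-only. HSP90AB1 lay above the median throughout, higher than 66.3% to 94.8% of bins in FLAG-only and 68.4% to 98.4% in V5-only. FLAG-only had 77 significant peaks of 883 (8.72%, 7.03% to 10.8%) against 7.76% of all peaks, and V5-only 40 of 900 (4.44%, 3.28% to 5.99%) against 3.14%. The 2 libraries of 125-200 kDa held 38 and 22 of these, where 22.1% and 11.5% of all peaks were significant, and without them the counts were 39 and 18. The 125-200 kDa library was the highest of its antibody for every one of the 7 genes.

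HSP90AB1 stood highest, in 6 of 7 FLAG-only ranges and all 7 V5-only ranges, with TUBA1B ahead of it in FLAG-only 100-175 kDa. Its mean over ranges was 2.77 ± 0.62 (SD, n = 7) in FLAG-only and 2.41 ± 0.66 in V5-only. It exceeded NPM1, the next gene, in all 7 ranges of either antibody, by 0.54 ± 0.28 and 0.80 ± 0.19. In FLAG-only the order went on with NPM1 (2.23 ± 0.49), TUBA1B (2.05 ± 0.35), EEF1A1 (1.97 ± 0.47), EEF2 (1.76 ± 0.38), GAPDH (1.70 ± 0.41) and ACTB (1.52 ± 0.38). Among these only EEF1A1 exceeded its neighbour, EEF2, in all 7 ranges, and the other neighbours changed places between ranges. In V5-only the rest lay between 1.26 ± 0.33 (EEF1A1) and 1.61 ± 0.54 (NPM1) and no neighbours kept their order in all 7 ranges.

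FLAG-only and V5-only were compared within gel ranges, which share an input label, with limma over 6502 features (the 7 genes and the 10-kb bins with a peak in all 14 libraries). Of all features 1925 (29.6%) were higher in FLAG-only and 59 (0.907%) in V5-only at a Benjamini-Hochberg adjusted p under 0.05. Of the 7 genes 4 were higher in FLAG-only and 0 in V5-only. FLAG-only libraries lay higher in general, with a median difference of 0.35 over all features and 0.36 over the 7 genes.

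EEF1A1 differed most. Its lowest, median and highest mean log2 folds were 1.55, 1.87 and 2.94 in FLAG-only and 0.92, 1.17 and 1.86 in V5-only. The ranges overlap across gels, but FLAG-only was higher in 7 of 7 ranges, by 0.70 (SE 0.13, limma adjusted p = 0.00419). NPM1 had 1.51, 2.11 and 3.05 in FLAG-only and 0.89, 1.58 and 2.62 in V5-only, a difference of 0.62 (SE 0.12, limma adjusted p = 0.00503, higher in 7 of 7 ranges). TUBA1B had 1.57, 2.01 and 2.65 against 1.01, 1.28 and 2.30, a difference of 0.54 (SE 0.12, limma adjusted p = 0.0109, 7 of 7). HSP90AB1 had 2.24, 2.57 and 3.95 against 1.74, 2.25 and 3.64, a difference of 0.36 (SE 0.10, limma adjusted p = 0.0243, 7 of 7), about the shift of all features.

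The remaining 3 genes did not pass. EEF2 had 1.42, 1.59 and 2.49 in FLAG-only and 1.20, 1.54 and 2.17 in V5-only. FLAG-only was higher in 7 of 7 ranges, by 0.22 (SE 0.12, limma adjusted p = 0.180). GAPDH differed by 0.20 (SE 0.14, limma adjusted p = 0.280, 6 of 7) and ACTB by 0.06 (SE 0.14, limma adjusted p = 0.756, 3 of 7). An exact sign-flip permutation over the 7 ranges, two-sided, gave p = 0.0156, the smallest it can give, for each of the 5 genes higher in all ranges, 0.0938 for GAPDH and 0.531 for ACTB. It used values not adjusted for the general shift between the antibodies. The median of all features was itself higher in FLAG-only in every range, by 0.19 to 0.55. The permutation therefore cannot tell a gene's difference from that shift.

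With each library centred on the median of all features, the calls split into 113 higher in FLAG-only and 126 higher in V5-only. FLAG-only then made up 47.3% of calls in place of 97.0%. They were 1.74% and 1.94% of features, and no gene of the 7 passed. The limma adjusted p was 0.124 for EEF1A1 (difference 0.36), 0.241 for NPM1 (0.27), 0.404 for TUBA1B (0.19) and 0.968 for HSP90AB1 (0.01), and EEF2, ACTB and GAPDH turned to −0.12, −0.29 and −0.15. After centring FLAG-only was higher in 7 of 7 ranges for EEF1A1 and in 6 each for NPM1 and TUBA1B. It was higher in 4 for HSP90AB1, 2 for GAPDH and 0 each for EEF2 and ACTB. TUBA1B and HSP90AB1 also lost their calls when bins seen in at least 4 libraries of each antibody were added. The ranges overlap one another and no label names separate cultures, so these p-values reflect only how much these 14 libraries vary, and that variation may be technical.

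**Figure D5:**
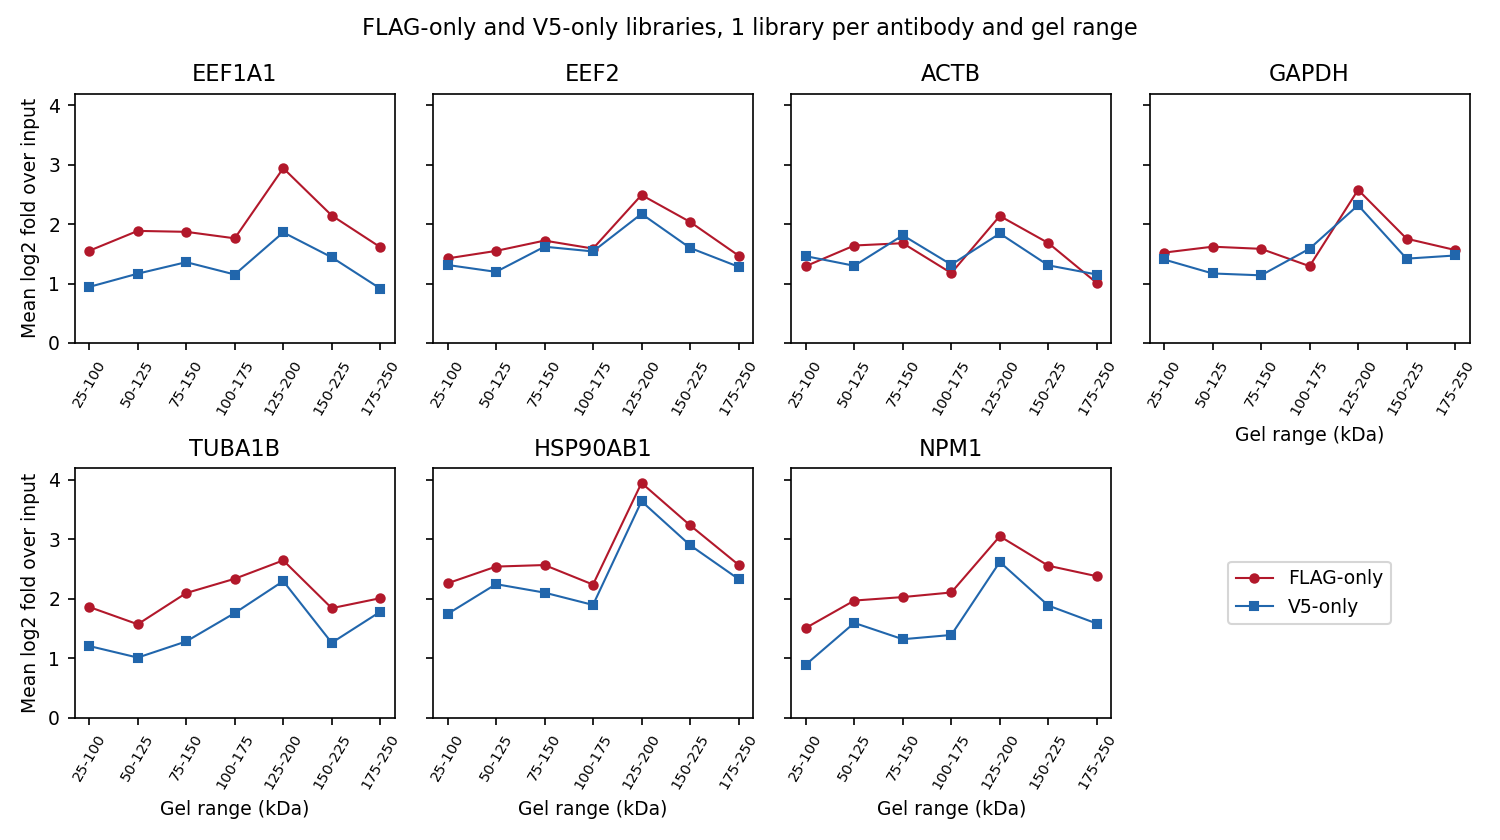
Mean log2 fold over input (y axis) of each gene in the FLAG-only (circles) and V5-only (squares) library of each gel range in kDa (x axis), 1 library per point, with lines joining neighbouring ranges, which overlap. FLAG-only lies above V5-only in 7 of 7 ranges for EEF1A1, EEF2, TUBA1B, HSP90AB1 and NPM1 and in 3 of 7 for ACTB, and 125-200 kDa is the highest range in every panel.

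Some significant peaks of different libraries met at the same places. Merged on the same strand, the 165 peaks formed 71 regions, 20 in NPM1, 16 in HSP90AB1, 11 in EEF1A1, 9 in EEF2 and 5 each in ACTB, GAPDH and TUBA1B. Of these 71, 27 were significant in at least 2 libraries and 44 in 1 library. By kind of library, 40 were significant in tag-only libraries alone, 22 in RBP libraries alone and 9 in both. Regions elsewhere in the genome were not counted in this way, so recurrence cannot be called particular to these genes. FLAG-only and V5-only were both significant in 18.

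The region shared most widely lay in TUBA1B at 49521583 to 49521847, ending 18 nt from the 3′ end of the gene. It held called peaks in all 25 libraries and significant ones in 6, LIN28 V5, 4 FLAG-only and V5-only 175-250 kDa. The mean log2 fold there was 3.39 in LIN28 V5, 1.40 in LIN28 wild type, 1.60 and 1.89 in FMR1 wild type and FLAG, and −0.67, −1.54 and −1.08 in the HNRNPC libraries. HSP90AB1 had a region at 44220782 to 44220860 significant in 5 libraries, FMR1 FLAG and 4 tag-only, with a highest log2 fold of 4.46. Another, at 44219736 to 44219947, was also significant in 5, FMR1 FLAG, LIN28 V5 and 3 tag-only, with a highest log2 fold of 3.41. EEF1A1 had one at 74229060 to 74229173 significant in LIN28 V5 and 3 FLAG-only libraries, the highest at 4.31, and in 0 V5-only libraries.

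In GAPDH, NPM1 and ACTB the leading regions were significant in tag-only libraries alone, whereas in EEF2 some were shared with RBP libraries. In GAPDH the region at 6647073 to 6647161 was significant in 3 tag-only libraries and in 0 RBP libraries. In NPM1 3 regions tied, each significant in 3 tag-only libraries and 0 RBP libraries. They lay at 170837531 to 170837536 (highest log2 fold 4.33), 170827842 to 170827930 (4.07) and 170832305 to 170832361 (3.60). In ACTB the leading region, 5569469 to 5569493, lay inside the stretch described above and was significant in V5-only 75-150 kDa and 150-225 kDa, with log2 folds of 4.13 and 4.05. In EEF2 3 regions tied at 2 libraries each. These were 3976343 to 3976363 in FMR1 FLAG (3.17) and V5-only 100-175 kDa (3.21), 3980565 to 3980626 in LIN28 V5 and FLAG-only 75-150 kDa, and 3982519 to 3982544 in FLAG-only and V5-only 175-250 kDa.

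One HSP90AB1 region, singled out after its values were seen, had the highest fold of any member peak. At 44218136 to 44218336, near the middle of the gene, it was significant in FLAG-only and V5-only at both 125-200 kDa and 150-225 kDa. Log2 folds reached 5.27 in V5-only 125-200 kDa and 5.09 in FLAG-only 125-200 kDa, and 3.75 and 3.88 in V5-only and FLAG-only 150-225 kDa. Peaks were called there in 22 of 25 libraries, and none of the RBP libraries was significant.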

How the data were processed

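eCLIP peak lists of 25 HEK293T libraries were analysed, 1 per library, so the authors had not pooled libraries. Each deposited list gives a position, a strand, the authors' −log10 p and the authors' log2 fold of IP over input. The −log10 p is capped at 400, and negative folds carry a −log10 p of 0. The build is hg19, and cutadapt, STAR, GATK, Picard and SAMtools are named without versions, per the submitters' processing notes. No source used here names the peak caller. Positions are 1-based. Depth in reads is unknown.

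The genes, lists and tests were chosen with earlier results of these data known. All 7 genes are named. Named sites are, per gene, the region significant in the most libraries and, per RBP library, the significant member peak of highest fold. Features were compared with limma 3.58.1 (trend, gel range as block) in R 4.3.3 and checked on simulated data. Counts used Python 3.11.15, pandas 2.3.3 and NumPy 2.4.6. Peak sequences, motifs, exon annotation and a planned list of other abundant mRNAs need an hg19 reference and were not analysed here.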

Additional observations from a re-analysis of the deposited data

Results flagged for a closer look

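In 3 of 16 sets of 7 gel ranges 1 library lay far from the others, where a rate of 1 in 20 would give 0.8. The sets share the same libraries and are not independent, so no conclusion is drawn from that number. All 3 far values were at 125-200 kDa. EEF1A1 in FLAG-only had a mean log2 fold of 2.94 there, with the next library at 2.15. GAPDH had 2.58 in FLAG-only with the next at 1.76, and 2.32 in V5-only with the next at 1.59. The median over all called peaks was also highest in those libraries, 2.89 in FLAG-only and 2.37 in V5-only 125-200 kDa, so the genes moved with their libraries. The part of the library in these values was not tested.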

How the results depend on the processing

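Of 260 recomputed values, 186 kept their direction and their side of the threshold or stayed within 1.5 times. At a log2 fold of at least 2 the significant member peaks rose to 16 in HNRNPC, 30 in FMR1, 6 in RBFOX2, 68 in LIN28, 15 in DGCR8, 365 in FLAG-only and 201 in V5-only, and the regions to 138, of which 97 were in at least 2 libraries. Without the libraries of 125-200 kDa, an alternative added after seeing the data, the counts were 39 in FLAG-only and 18 in V5-only. A −log10 p threshold of 5 and merging within 50 nt changed no count by over 1.5 times, apart from GAPDH in FLAG-only. There the significant peaks fell from 5 to 2 at a −log10 p of 5. Requiring overlap of 50% of the peak could change no count, because 0 member peaks crossed the edge of a gene. Its unchanged values are among the 186 and say nothing on stability. Features higher in FLAG-only and V5-only numbered 10 and 2 with no replicate block by gel range (0 of the 7 genes called), 1490 and 39 with medians over peaks, 113 and 126 after centring, and 945 and 40 of 16709 with features in at least 4 libraries of each antibody. In that last setting the limma adjusted p was 0.0718 for TUBA1B and 0.122 for HSP90AB1. Centring turned EEF2 to −0.12, ACTB to −0.29 and GAPDH to −0.15. The cause was not tested. Stretches free of FMR1 peaks alone held the same number of other peaks in all 7 genes. With LIN28 alone the longest stretch moved, to 14 peaks in EEF1A1, 71 in EEF2 and 44 in ACTB. Without read depths, a peak missing from a list may be undetected rather than absent.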
